A study of Mus musculus with 8 samples.

Results

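The genes described here are 37 markers of cells of the thymus other than thymocytes. They were chosen by name for their cell type out of the 55359 gene IDs of the deposited tables, with earlier results of these data known. They comprise 12 myeloid, 3 dendritic, 4 B lymphoid, 3 erythroid, 11 epithelial, 2 endothelial and 2 mesenchymal markers, and all 37 were found in the tables. The samples were bulk RNA of sorted double-positive (DP) thymocytes, developing T cells that carry both CD4 and CD8, with absent or low to intermediate T cell receptor beta on the surface (TCRb-/lo-int). The markers are thus genes of cells that such a sort is meant to leave out.

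Of the 8 samples, 4 came from LSL-Sting1-N153S;Lck-cre mice (called Lck-cre, replicates 5 to 8) and 4 from LSL-Sting1-N153S/+ mice without Cre (control, replicates 1 to 4). All mice were 5 weeks old, each group held 1 female and 3 males, and all mice carried the LSL-Sting1-N153S allele. In such an allele a loxP-flanked stop sequence blocks expression until Cre removes it, and the Lck promoter drives Cre in the T lineage, so the mutant protein is made in Lck-cre thymocytes and their descendants. STING, the product of Sting1, senses cyclic dinucleotides at the endoplasmic reticulum and starts type I interferon and NF-kappaB signalling, and N153S is a gain-of-function mutation. The labels do not say that each sample came from a separate animal, so p-values measure the spread between these samples, which may be partly technical.

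A thymus holds few cells that are not thymocytes. Epithelial cells of the cortex and medulla select thymocytes, macrophages take up those that die, dendritic cells present antigen, and B cells, endothelial cells and fibroblasts make up the rest. Macrophages bind and engulf thymocytes, and epithelial nurse cells enclose DP thymocytes. Markers of these lineages are commonly read as a check of the purity of a sort, although several of the 37 genes are also known in T-lineage cells.

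The level used throughout is FPKM, which counts fragments per length of gene and per size of library. Values summed to between 437778 and 457145 FPKM in Lck-cre samples and to between 413835 and 437426 FPKM in control samples, and 22809 to 23443 genes in Lck-cre samples and 23048 to 23189 genes in control samples were above 0. Depth in reads is unknown, since the tables used here hold no counts. At the commonest ratio of coverage to FPKM, a gene at 0.1 FPKM had a mean coverage of 0.765 to 0.786 reads per base in Lck-cre samples and 0.753 to 0.789 in control samples, so levels under 0.1 FPKM rest on few reads. Sting1 had 221, 85.4, 130 and 232 FPKM in Lck-cre replicates 5 to 8, against 15.3, 11.6, 13.4 and 11.9 FPKM in control replicates 1 to 4, a log2 difference of 3.52 ± 0.25 (SE, adjusted p = 0.00213), in keeping with the labels. The thymocyte genes Cd4 and Cd8a were far above the markers in every sample. Cd4 had 422 to 689 FPKM in Lck-cre samples and 699 to 788 FPKM in control samples. Cd8a had 941 to 1198 FPKM in Lck-cre samples and 1079 to 1237 FPKM in control samples. Ptcra, another thymocyte gene, had 36.6 to 49.2 FPKM in Lck-cre samples and 25.7 to 33.6 FPKM in control samples. The marker Pecam1 was above Ptcra, with 49.9 to 57.4 FPKM in Lck-cre samples and 43.5 to 52.8 FPKM in control samples.

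The Lck-cre samples stood apart from each other in these markers. Of the 27 markers under 1 FPKM in most samples that were above 0 anywhere, Lck-cre replicate 8 held the highest value of the 8 samples for 20, and Lck-cre replicate 6 alone was the lowest of its group for 16.

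As a set, the low-level markers were higher in Lck-cre thymocytes. The 28 markers that did not reach 1 FPKM in at least 4 samples summed to 6.95, 3.61, 6.17 and 11.6 FPKM in Lck-cre replicates 5 to 8, against 2.05, 1.94, 1.67 and 2.24 FPKM in control replicates 1 to 4. All 4 Lck-cre sums lay above all 4 control sums, and the mean was 7.08 ± 3.31 FPKM in Lck-cre samples and 1.97 ± 0.238 FPKM in control samples (SD, n = 4 each), a ratio of 3.59. The remaining 9 markers, at 1 FPKM or more in at least 4 samples, were Cd68, Itgam, Cd79b, Cd72, Hemgn, Epcam, Ly75, Ccl25 and Pecam1. In bulk RNA, more cells of a type and more RNA per cell cannot be told apart.

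Counted gene by gene, every Lck-cre sample lay above every control sample for 15 of the 37 markers, and the reverse held for 0 of 37. Over all genes above 0 anywhere, the shares were 9.04% above and 7.24% below. Shares over all genes are given as a scale only, since the list was chosen with earlier results of these data known. Among the 28 low-level markers the count was 12, while of all genes with a mean above 0 and under 1 FPKM 3.0% lay wholly above and 3.57% wholly below. By lineage, these 12 were 6 of 10 myeloid, 2 of 3 dendritic and 4 of 8 epithelial genes, and 0 of 2 B lymphoid, 0 of 2 erythroid, 0 of 1 endothelial and 0 of 2 mesenchymal genes. Among the other 9 markers the count was 3, where 17.2% of genes with a mean of at least 1 FPKM lay wholly above. Without Lck-cre replicate 6 the count over all markers was 23 of 37, and without any other single sample it was 15 to 17. With 1 sample fewer a full separation is easier to reach, and the share over all genes is not given for these counts.

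Tests were made with limma over all genes, on log2 values with terms for sex and genotype, and a gene was called at a Benjamini-Hochberg adjusted p under 0.05 over all genes tested. The fit with a minimum of 1 FPKM in at least 4 samples tested 9 markers and called 3 higher (Cd68, Cd72 and Hemgn) and 0 lower, where 25.8% of all genes tested were called, 15.4% higher and 10.4% lower. The fit with a minimum of 0.1 FPKM in at least 4 samples tested 21 markers and called 11 higher and 0 lower, where 18.4% of all genes tested were called, 10.9% higher and 7.42% lower. At an unadjusted p under 0.05, these fits had 4 and 13 markers higher and 0 lower in either. No share of all genes at an unadjusted p is given, here or below, so such counts have no scale beside them. A gene could pass the 0.1 FPKM minimum through Lck-cre samples alone, and 8 of the 21 passed with fewer than 4 control samples at 0.1 FPKM, of which 6 were called. Of the 13 markers at 0.1 FPKM or more in all 8 samples, 5 were called, which were Lyz2, Cd68, Tyrobp, Cd72 and Hemgn. A fit of the 15452 genes at that level in all 8 samples called 1957 higher and 1347 lower. With no minimum at all, 36 markers were tested and 3 were called higher (Hemgn, Krt8 and Tbata) and 0 lower, where 4.14% of all genes were called, 2.78% higher and 1.36% lower, and 19 were higher and 0 lower at an unadjusted p under 0.05. The median log2 difference without a minimum was 0.53 over the 36 markers and -0.000536 over all 28851 genes.

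**Figure D1:**
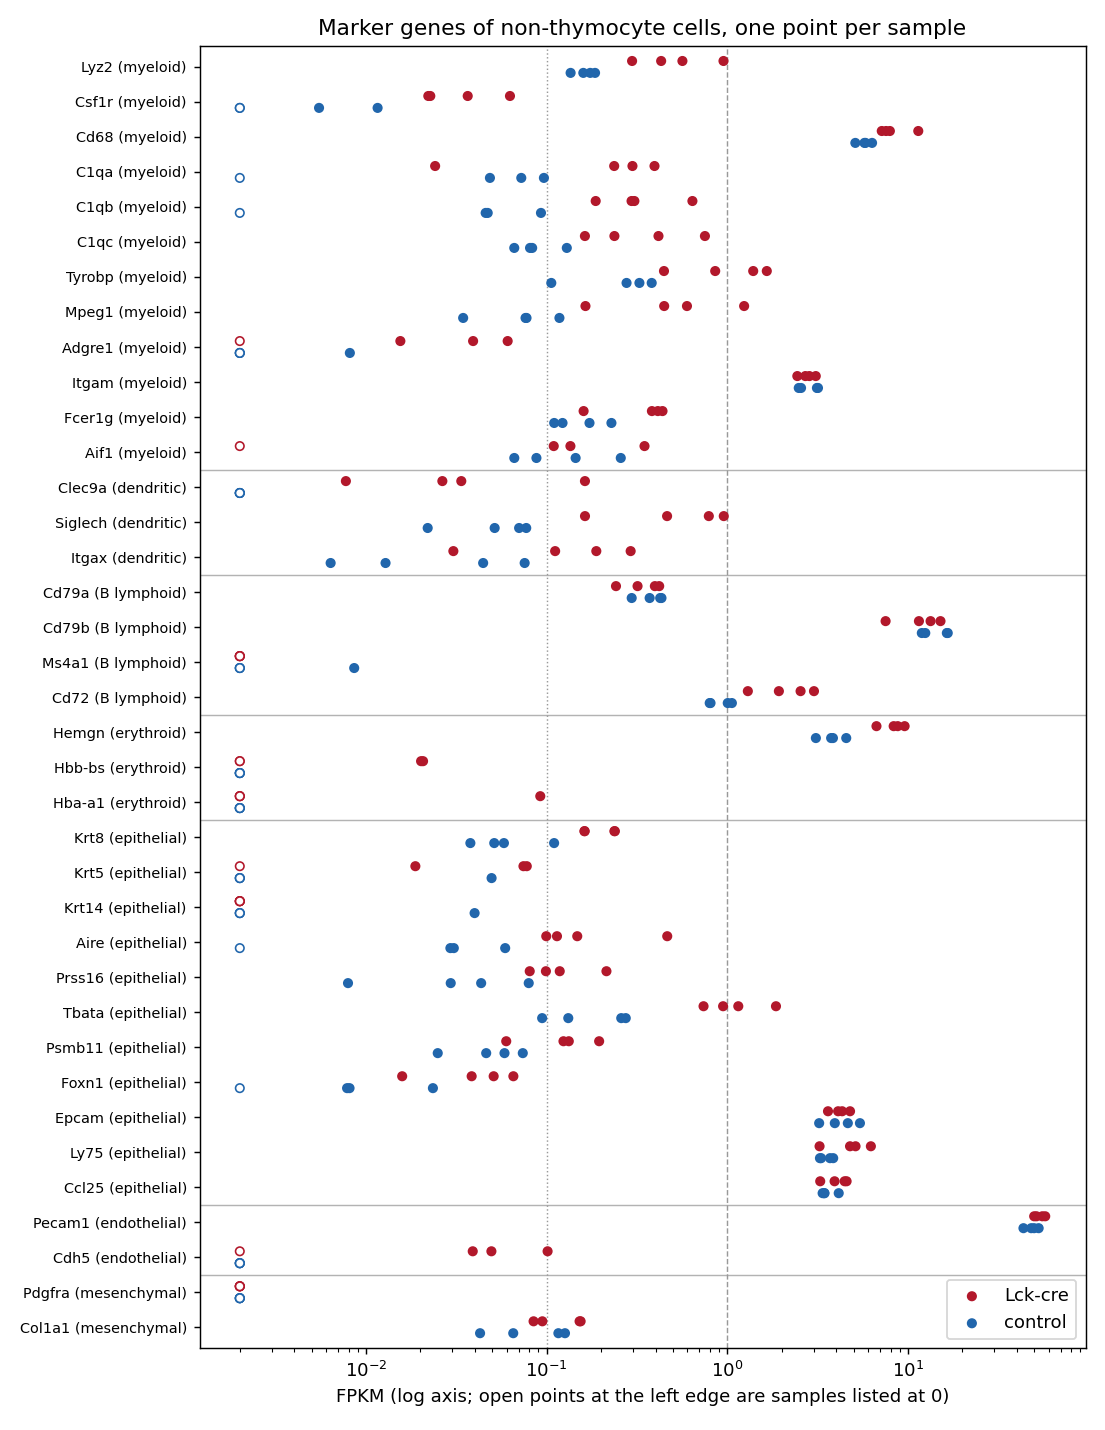
FPKM of each of the 37 markers on a log axis, with 1 point per sample (Lck-cre in red, control in blue), open points at the left edge for samples listed at 0, and lines at 0.1 FPKM (dotted) and 1 FPKM (dashed). Most markers lie under 1 FPKM, and for 15 of the 37 all Lck-cre points lie to the right of all control points, among them Tbata, Hemgn, Siglech and Lyz2.

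The called marker with the largest change was taken from each of 4 lineages. No marker was called lower, so that these genes were higher in the Lck-cre samples follows from the choice. Their upstream sequences are shown. They are the 250 bases before the transcription start from RefSeq (build GRCm38.p6, not the unnamed build of the expression tables), written 5′ to 3′ on the gene's strand, for Mpeg1 (chr19:12460520-12460769, plus strand), Siglech (chr7:55767934-55768183, plus strand), Cd72 (chr4:43454627-43454876, minus strand) and Tbata (chr10:61171714-61171963, plus strand). Capitals mark matches on either strand to the core of a PU.1 site (GAGGAAGT), a GATA site (AGATAA) or an interferon-stimulated response element (GAAA and GAAA with any 2 bases between them).
Mpeg1: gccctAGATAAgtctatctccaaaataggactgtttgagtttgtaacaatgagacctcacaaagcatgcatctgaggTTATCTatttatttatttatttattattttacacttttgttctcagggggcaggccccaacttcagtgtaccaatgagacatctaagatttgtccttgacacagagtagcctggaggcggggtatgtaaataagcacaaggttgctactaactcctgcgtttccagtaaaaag
Siglech: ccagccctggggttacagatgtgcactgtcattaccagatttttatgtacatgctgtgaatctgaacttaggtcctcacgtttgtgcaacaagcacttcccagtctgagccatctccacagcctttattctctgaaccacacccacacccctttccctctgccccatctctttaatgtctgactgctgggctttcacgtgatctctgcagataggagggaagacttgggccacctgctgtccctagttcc
Cd72: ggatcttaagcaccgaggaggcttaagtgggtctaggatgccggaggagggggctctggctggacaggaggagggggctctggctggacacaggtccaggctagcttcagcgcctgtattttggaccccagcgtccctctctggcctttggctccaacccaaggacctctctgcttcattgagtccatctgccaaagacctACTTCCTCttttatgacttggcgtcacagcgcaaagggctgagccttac
Tbata: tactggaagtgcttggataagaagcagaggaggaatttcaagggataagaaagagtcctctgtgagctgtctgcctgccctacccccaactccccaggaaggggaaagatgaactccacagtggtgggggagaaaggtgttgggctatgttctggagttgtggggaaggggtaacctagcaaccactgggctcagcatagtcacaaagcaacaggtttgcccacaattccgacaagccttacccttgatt

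Mpeg1 held 2 GATA cores, 245 to 240 and 173 to 168 bases before the start, Cd72 held 1 PU.1 core 49 to 42 bases before the start, and Siglech and Tbata held no match in this window. Of 27 markers with a promoter in the table, 2 held the PU.1 core (C1qc and Cd72), 4 the GATA core (Hbb-bs, Itgax, Krt8 and Mpeg1) and 1 the interferon element (Aif1). Over all 32851 promoters of this length, 2.44% held the PU.1 core, 9.99% the GATA core and 2.98% the interferon element. A match is a description of the letters, and no binding was measured.

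Most of the 12 myeloid markers were higher in Lck-cre thymocytes, at levels far under those of Cd4 and Cd8a. All Lck-cre samples lay above all control samples for 7 of 12. Over all genes above 0 anywhere, 9.04% lay wholly above, and 3.0% of those with a mean under 1 FPKM. With a minimum of 0.1 FPKM, 6 of the 9 tested rose (Lyz2, Cd68, C1qb, C1qc, Tyrobp and Mpeg1), with 0 lower at either an adjusted or an unadjusted p under 0.05, where 10.9% of all genes tested were called higher. C1qb passed that minimum through Lck-cre samples alone, and C1qc and Mpeg1 had 1 control sample at 0.1 FPKM. Of the 5 myeloid markers at 0.1 FPKM or more in all 8 samples, 3 rose (Lyz2, Cd68 and Tyrobp). The 10 low-level myeloid markers summed to 3.72, 1.72, 3.30 and 6.48 FPKM in Lck-cre replicates 5 to 8, against 0.985, 0.982, 0.962 and 1.10 FPKM in control replicates 1 to 4. The control sums were nearly equal, while the Lck-cre sums spread widely and all lay above them.

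Among markers of engulfment and digestion, Lyz2, the lysozyme of macrophages and neutrophils, had 0.297, 0.430, 0.564 and 0.951 FPKM in Lck-cre samples, against 0.174, 0.159, 0.185 and 0.136 FPKM in control samples. The groups did not overlap, and the log2 difference was 1.24 ± 0.27 (SE, adjusted p = 0.0186). Mpeg1, the pore-forming perforin-2 of macrophages, had 0.597, 0.164, 0.447 and 1.24 FPKM in Lck-cre samples, against 0.0763, 0.118, 0.0345 and 0.0773 FPKM in control samples. Replicate 6 was close to the highest control and replicate 8 far above it, and the log2 difference was 1.80 ± 0.44 (SE, adjusted p = 0.0254). Cd68, a lysosomal glycoprotein of macrophages, was well expressed in both groups, with 7.93, 7.15, 7.55 and 11.4 FPKM in Lck-cre samples, against 6.32, 5.74, 5.11 and 5.81 FPKM in control samples. Its log2 difference with a minimum of 1 FPKM was 0.51 ± 0.14 (SE, adjusted p = 0.0304), and with TPM in place of FPKM the adjusted p was 0.0527. Cd68 thus rose by 1.48-fold of the mean, where Lyz2 rose by 3.43-fold and Mpeg1 by 8.0-fold.

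The 3 chains of complement C1q, made by tissue macrophages, are neighbours on chromosome 4 (C1qb at 136607440 to 136613498, C1qc at 136617115 to 136620376 and C1qa at 136623228 to 136626114, positions as in the files, whose build is not named). C1qb had 0.295, 0.187, 0.306 and 0.640 FPKM in Lck-cre samples, against 0.0929, 0.0471, 0.0459 and 0 FPKM in control samples, with a log2 difference of 1.59 ± 0.32 (SE, adjusted p = 0.0158). No control sample reached 0.1 FPKM for C1qb, so it was tested only because of its level in Lck-cre samples. C1qc had 0.237, 0.163, 0.415 and 0.751 FPKM in Lck-cre samples, against 0.0808, 0.0661, 0.0831 and 0.129 FPKM in control samples, with a log2 difference of 1.24 ± 0.34 (SE, adjusted p = 0.0374). C1qa had 0.298, 0.0241, 0.236 and 0.395 FPKM in Lck-cre samples, against 0.0965, 0, 0.0723 and 0.0485 FPKM in control samples, and was not tested. In all 3 genes Lck-cre replicate 8 was the highest sample and Lck-cre replicate 6 the lowest of its group, within the control range for C1qa.

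Of 2 signalling adaptors of myeloid receptors, 1 rose. Tyrobp (DAP12), an adaptor also used by natural killer cells, had 1.39, 0.446, 0.856 and 1.65 FPKM in Lck-cre samples, against 0.277, 0.326, 0.106 and 0.381 FPKM in control samples, without overlap and with a log2 difference of 1.61 ± 0.39 (SE, adjusted p = 0.0254). Fcer1g, the gamma chain of Fc receptors, had 0.412, 0.16, 0.437 and 0.382 FPKM in Lck-cre samples, against 0.122, 0.110, 0.172 and 0.228 FPKM in control samples, where Lck-cre replicate 6 fell within the control range. Its adjusted p was 0.0886 with all samples and 0.0155 without Lck-cre replicate 6. Whether the changes of Tyrobp and Fcer1g differ was not tested. Itgam, the integrin chain CD11b, had 2.70, 2.84, 3.08 and 2.44 FPKM in Lck-cre samples, against 2.56, 3.13, 3.17 and 2.48 FPKM in control samples, a log2 difference of -0.03 (95% confidence interval -0.28 to 0.22, adjusted p = 0.875). Its groups overlapped fully.

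The receptors that define macrophages were near the limit of the data. Csf1r, the receptor for the macrophage growth factor CSF1, had 0.0221 to 0.0626 FPKM in Lck-cre samples and 0 to 0.0116 FPKM in control samples, without overlap, and was not tested. It shares 873 bases with Hmgxb3 on the opposite strand, at 13.2 FPKM in Lck-cre samples and 13.4 FPKM in control samples, and whether the reads keep strand is not stated in the labels or headers. Adgre1, which encodes the macrophage antigen F4/80, had 0.0391, 0, 0.0155 and 0.0608 FPKM in Lck-cre samples, and was listed at 0 in control samples but for 0.00813 FPKM in replicate 4. Aif1 (Iba1), a calcium-binding protein of macrophages, ranged from 0 to 0.348 FPKM in Lck-cre samples and from 0.0661 to 0.257 FPKM in control samples, with an adjusted p of 0.924.

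Each myeloid call ended when some single samples were left out. Leaving out Lck-cre replicate 5 or control replicate 1 ended the calls of Lyz2, Cd68, C1qc, Tyrobp and Mpeg1 (adjusted p 0.0516 to 0.0958), and leaving out control replicate 1 ended that of C1qb (adjusted p 0.0520). These samples are the only females, and without either the other is uninformative, so the comparison was of 3 males against 3. The log2 differences were then 1.47 (Lyz2), 0.58 (Cd68), 1.35 (C1qc), 1.48 (Tyrobp) and 1.74 (Mpeg1). With all samples they were 1.24, 0.51, 1.24, 1.61 and 1.80. Without control replicate 2, the calls of Lyz2, Cd68, C1qc, Tyrobp and Mpeg1 ended (adjusted p 0.0560 to 0.103). Without Lck-cre replicate 7, those of C1qc, Tyrobp and Mpeg1 ended (adjusted p 0.0574 to 0.0883), and so did that of Cd68 (adjusted p 0.0502 with a minimum of 1 FPKM). Without Lck-cre replicate 8, those of C1qc and Tyrobp ended (adjusted p 0.0663 and 0.0537), and without control replicate 3 or 4 those of Cd68, C1qc and Mpeg1 (adjusted p 0.0526 to 0.0710), with Cd68 read throughout with a minimum of 1 FPKM. Without Lck-cre replicate 6, all 5 that could be tested were called (adjusted p 0.00458 to 0.0197). C1qb failed the minimum without any Lck-cre sample. Over all 17430 genes tested with a minimum of 0.1 FPKM, the number called fell to 68 of 17171 without Lck-cre replicate 5 and to 124 of 17182 without control replicate 1.

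The 3 dendritic markers were all higher on average in Lck-cre thymocytes, and 2 of 3 did not overlap between groups. Over all genes above 0 anywhere, 9.04% lay wholly above, and 3.0% of those with a mean under 1 FPKM. The 3 markers summed to 1.0, 0.201, 0.608 and 1.41 FPKM in Lck-cre replicates 5 to 8, against 0.0834, 0.127, 0.0347 and 0.115 FPKM in control replicates 1 to 4, a ratio of means of 8.95. Siglech, a lectin of plasmacytoid dendritic cells, the main makers of type I interferon, carried most of the sum. It had 0.789, 0.163, 0.464 and 0.955 FPKM in Lck-cre samples, against 0.0770, 0.0515, 0.0219 and 0.0703 FPKM in control samples. All 4 Lck-cre samples lay above the controls, and the log2 difference was 1.99 ± 0.38 (95% confidence interval 1.13 to 2.86, adjusted p = 0.0142), with a 10.7-fold ratio of means. No control sample reached 0.1 FPKM, so Siglech was tested through its Lck-cre samples alone. With no minimum its adjusted p was 0.0507, and without control replicate 1 it was 0.0619. Without any 1 of the Lck-cre samples it failed the minimum.

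Clec9a, the dead-cell receptor of cross-presenting dendritic cells, had 0.0264, 0.00773, 0.0337 and 0.163 FPKM in Lck-cre samples and was listed at 0 in all 4 control samples. Itgax, the integrin chain CD11c of dendritic cells, had 0.188, 0.0304, 0.111 and 0.291 FPKM in Lck-cre samples, against 0.00637, 0.0755, 0.0128 and 0.0445 FPKM in control samples, where only Lck-cre replicate 6 fell into the control range. Neither was tested with a minimum, and without one the adjusted p was 0.257 for Clec9a and 0.218 for Itgax. Itgax lies next to Itgam on chromosome 7 (127728719 to 127749829 and 127661812 to 127717663 in the files), where the Itgam groups overlapped fully.

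**Figure D2:**
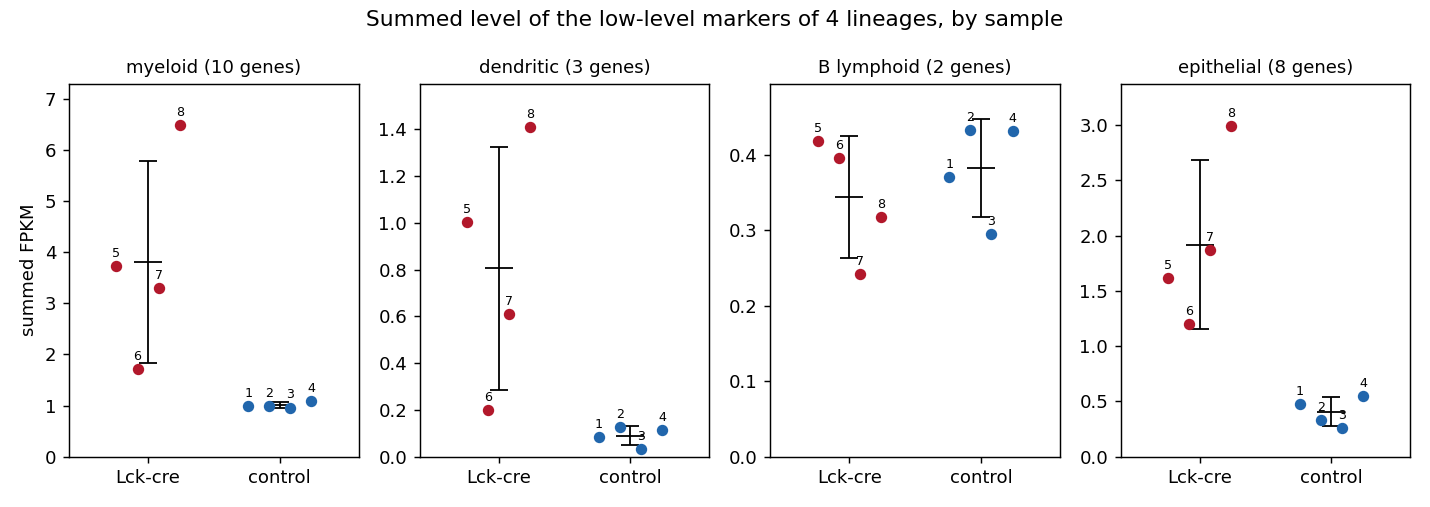
Summed FPKM of the low-level markers of 4 lineages in each sample, numbered by replicate (Lck-cre in red at the left, control in blue at the right), with the mean and SD of 4 samples as bars on linear axes that start at 0. The myeloid, dendritic and epithelial sums of all Lck-cre samples lie above those of all control samples, with replicate 8 highest and replicate 6 lowest, while the B lymphoid sums of the groups overlap.

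Of the 4 B lymphoid markers, 1 rose, and the chains of the B cell receptor were not called. Cd79a and Cd79b encode the signalling chains of the B cell receptor. Cd79a had 0.419, 0.397, 0.242 and 0.318 FPKM in Lck-cre samples, against 0.371, 0.425, 0.295 and 0.432 FPKM in control samples, a log2 difference of -0.12 ± 0.20 (SE, adjusted p = 0.70). Cd79b had 11.5, 15.1, 13.3 and 7.51 FPKM in Lck-cre samples, against 16.4, 12.5, 16.6 and 11.9 FPKM in control samples, a log2 difference of -0.29 (95% confidence interval -0.74 to 0.16, adjusted p = 0.300). The groups overlapped for both chains, and in both groups Cd79b was far above Cd79a on the FPKM scale. Ms4a1, which encodes CD20 of mature B cells, was listed at 0 in all Lck-cre samples and in all control samples but replicate 2, with 0.0086 FPKM.

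Cd72, a C-type lectin co-receptor of B cells, was the B lymphoid marker that rose. It had 2.54, 1.3, 1.93 and 3.01 FPKM in Lck-cre samples, against 1.0, 0.806, 0.798 and 1.06 FPKM in control samples. The groups did not overlap, the ratio of means was 2.39, and the log2 difference with a minimum of 1 FPKM was 0.89 ± 0.19 (95% confidence interval 0.45 to 1.33, adjusted p = 0.0149). The gene, at 43446462 to 43454628 on the minus strand of chromosome 4 in the files, shares 1603 bases with Tesk1 on the plus strand, which averaged 8.93 FPKM in Lck-cre samples and 8.70 FPKM in control samples. Without strand, reads of the shared stretch cannot be told apart. Leaving out Lck-cre replicate 5 or control replicate 1 ended the call (adjusted p 0.0640 and 0.0635), and with no minimum the adjusted p was 0.0692.

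Of the 3 erythroid markers, Hemgn rose and the globins were at or near 0. Hemgn encodes hemogen, a nuclear protein of blood-forming and erythroid cells, and had 8.77, 6.68, 8.32 and 9.57 FPKM in Lck-cre samples, against 3.09, 3.75, 4.55 and 3.84 FPKM in control samples. The lowest Lck-cre sample was above the highest control sample, the ratio of means was 2.19, and the log2 difference was 1.04 ± 0.13 (95% confidence interval 0.74 to 1.33, adjusted p = 0.00619). The call held with each sample left out in turn (adjusted p 0.00107 to 0.0411) and in males alone (adjusted p = 0.0438). Hbb-bs, an adult beta globin, had 0, 0, 0.0202 and 0.0207 FPKM in Lck-cre samples, and Hba-a1, an alpha globin, 0, 0, 0 and 0.0921 FPKM, and both were listed at 0 in all control samples. Their near-identical copies Hbb-bt and Hba-a2, between which reads may be split, were at most 0.0540 and 0.0504 FPKM in Lck-cre samples and at 0 in all control samples. Hemgn thus had 6.68 FPKM or more in Lck-cre samples in which none of these 4 globin genes passed 0.1 FPKM.

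The 11 epithelial markers split into low-level genes, of which several were higher in Lck-cre thymocytes, and 3 genes above 3 FPKM in every sample that were not called. All Lck-cre samples lay above all control samples for 4 of 11, and 2 of the 5 tested with a minimum of 0.1 FPKM rose (Krt8 and Tbata), with 0 lower and 3 higher at an unadjusted p under 0.05. Over all genes, 9.04% lay wholly above, 3.0% of those with a mean under 1 FPKM, and 10.9% of those tested were called higher. Krt8 had 1 control sample at 0.1 FPKM and Tbata had 3. Of the 3 epithelial markers at 0.1 FPKM or more in all 8 samples, 0 were called. The 8 low-level epithelial markers summed to 1.61, 1.20, 1.87 and 2.99 FPKM in Lck-cre replicates 5 to 8, against 0.480, 0.335, 0.259 and 0.551 FPKM in control replicates 1 to 4, a ratio of means of 4.72. The order of the Lck-cre samples was that of the myeloid sums but for replicates 5 and 7.

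Tbata, a gene expressed in thymic epithelium and testis that restrains epithelial growth, was among the markers with the largest changes. Its log2 difference on log2(FPKM + 0.1) was above that of Siglech, while with a pseudocount of 0.05 it was below (2.36 for Tbata and 2.42 for Siglech), as it was with TPM (2.33 and 2.44) and by the ratio of means. It had 0.947, 0.738, 1.15 and 1.86 FPKM in Lck-cre samples, against 0.274, 0.0943, 0.132 and 0.258 FPKM in control samples. The groups lay far apart, with a ratio of means of 6.19 and a log2 difference of 2.12 ± 0.32 (95% confidence interval 1.41 to 2.83, adjusted p = 0.00998). The call held with each sample left out in turn (adjusted p 0.00367 to 0.0496), with no minimum (adjusted p = 0.0419) and in males alone (adjusted p = 0.0482). Tbata was the largest term of the low-level epithelial sum in each Lck-cre sample.

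Of the 3 keratins, Krt8 rose. Krt8, a keratin of simple epithelia and of cortical thymic epithelium, had 0.162, 0.162, 0.237 and 0.238 FPKM in Lck-cre samples, against 0.0579, 0.0378, 0.0512 and 0.110 FPKM in control samples, with a log2 difference of 0.88 ± 0.21 (SE, adjusted p = 0.0257). The groups did not overlap, and only control replicate 4 reached 0.1 FPKM among the controls. The call ended without Lck-cre replicate 5, 7 or 8 or control replicate 1, 2 or 3 (adjusted p 0.0512 to 0.0771), and held with no minimum (adjusted p = 0.0466). Krt5, a basal keratin of medullary epithelium, had 0.0187, 0, 0.0743 and 0.0775 FPKM in Lck-cre samples, and was listed at 0 in control samples but for 0.0495 FPKM in replicate 4. Krt14, its basal partner, was listed at 0 in all Lck-cre samples and in control samples but for 0.0399 FPKM in replicate 2.

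The factors that make thymic epithelium a selecting tissue were low in both groups. Aire, which drives expression of tissue-restricted antigens in the medulla, had 0.0994, 0.148, 0.114 and 0.464 FPKM in Lck-cre samples, against 0.0589, 0.0293, 0 and 0.0306 FPKM in control samples. Prss16, the thymus-specific serine protease of cortical epithelium, had 0.214, 0.0805, 0.0990 and 0.118 FPKM in Lck-cre samples, against 0.00794, 0.0795, 0.0434 and 0.0294 FPKM in control samples. For both genes the groups did not overlap, narrowly for Prss16, and with no minimum the adjusted p was 0.115 for Aire and 0.121 for Prss16. Psmb11, the thymoproteasome subunit beta5t, had 0.0597 to 0.195 FPKM in Lck-cre samples and 0.0249 to 0.0737 FPKM in control samples. Foxn1, the transcription factor required for thymic epithelium, had 0.0158 to 0.0654 FPKM in Lck-cre samples and 0 to 0.0234 FPKM in control samples. For Psmb11 and Foxn1 the groups overlapped through Lck-cre replicate 6.

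The 3 epithelial markers at higher levels did not pass the test with all 8 samples. Epcam, an adhesion molecule of epithelia, had 4.77, 3.60, 4.10 and 4.32 FPKM in Lck-cre samples, against 5.41, 3.93, 4.64 and 3.22 FPKM in control samples, a log2 difference of -0.02 (95% confidence interval -0.28 to 0.25, adjusted p = 0.932). Ly75, the endocytic receptor DEC-205 of cortical epithelium and dendritic cells, had 6.22, 3.24, 4.77 and 5.12 FPKM in Lck-cre samples, against 3.70, 3.25, 3.85 and 3.30 FPKM in control samples. Lck-cre replicate 6 lay just under the lowest control while the other Lck-cre samples were above all controls, and the log2 difference was 0.38 (95% confidence interval 0.05 to 0.71, adjusted p = 0.0827). Without Lck-cre replicate 6, Ly75 was called higher (log2 difference 0.52, adjusted p = 0.00732). Ccl25, the chemokine that draws CCR9-bearing progenitors and thymocytes, had 4.57, 3.26, 4.46 and 3.92 FPKM in Lck-cre samples, against 3.37, 3.45, 3.43 and 4.13 FPKM in control samples, a log2 difference of 0.15 (95% confidence interval -0.12 to 0.42, adjusted p = 0.376). Ccl25 shares 204 bases with Elavl1 on the opposite strand, which averaged 20.3 FPKM in Lck-cre samples and 19.1 FPKM in control samples.

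The endothelial and mesenchymal markers were not called in any direction, and at an unadjusted p under 0.05 the tests with either minimum held 0 of them. Pecam1, the adhesion molecule CD31 of endothelium and leukocytes, was the highest of the 37 markers, with 55.3, 51.4, 57.4 and 49.9 FPKM in Lck-cre samples, against 52.8, 48.0, 49.8 and 43.5 FPKM in control samples. The groups overlapped, and the log2 difference was 0.14 (95% confidence interval -0.02 to 0.30, adjusted p = 0.163). Cdh5, the cadherin of endothelial junctions, had 0.0389, 0, 0.0494 and 0.101 FPKM in Lck-cre samples and was listed at 0 in all control samples, so that Pecam1 stood at 43.5 FPKM or more in samples without detected Cdh5. Cdh5 was not tested with a minimum. In the limma fit without one, its log2 difference was 0.52 (95% confidence interval 0.05 to 0.98, unadjusted p = 0.0357, adjusted p = 0.171). Col1a1, a collagen chain of fibroblasts, had 0.154, 0.0946, 0.0846 and 0.152 FPKM in Lck-cre samples, against 0.126, 0.0652, 0.116 and 0.0428 FPKM in control samples (adjusted p = 0.440). Pdgfra, a receptor of mesenchymal cells, was listed at 0 in all 8 samples.

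**Figure D3:**
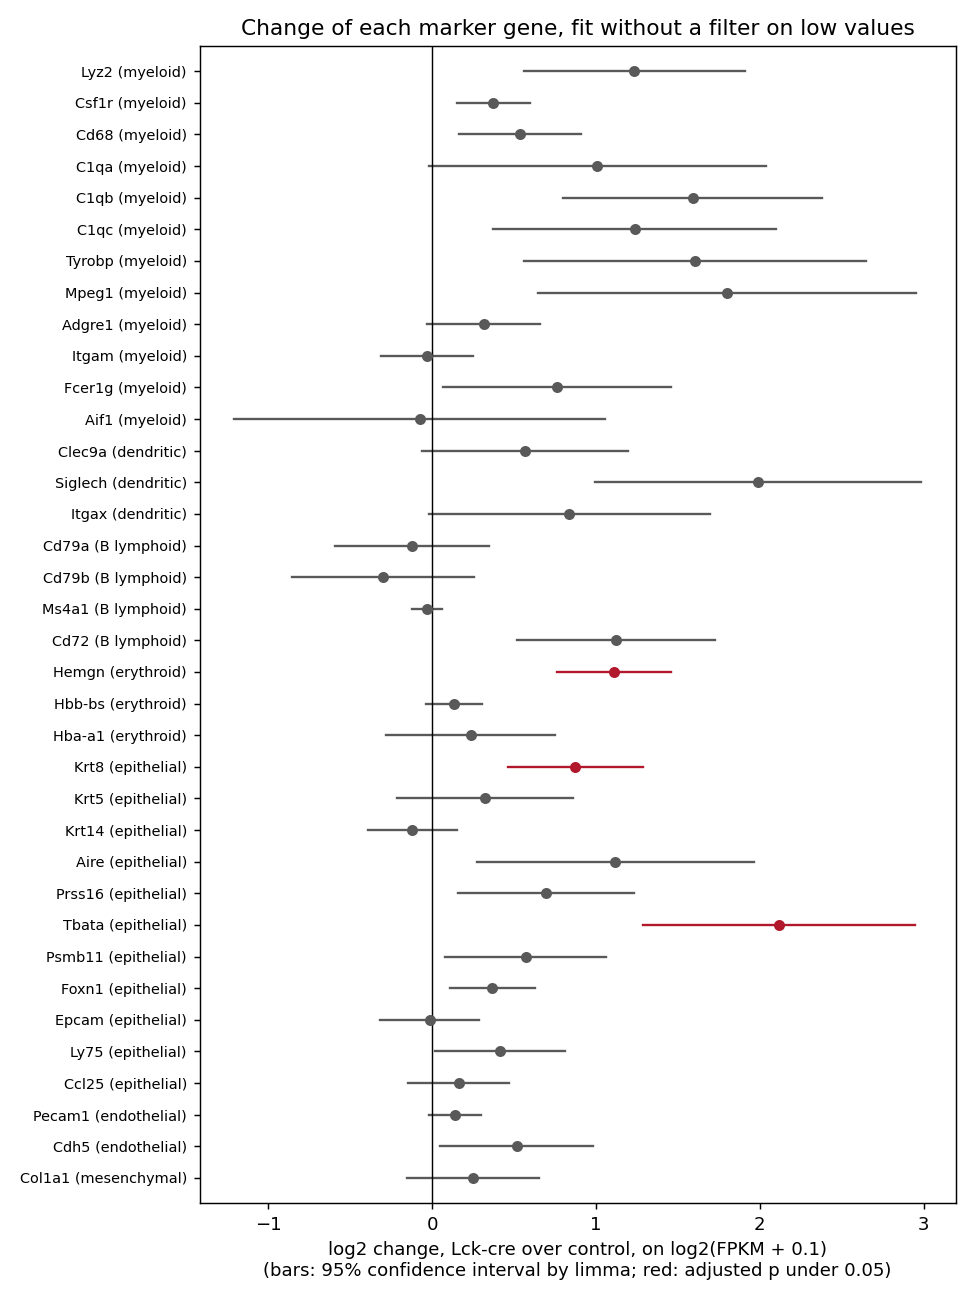
Log2 difference of each marker, Lck-cre over control, on log2(FPKM + 0.1) in the fit with no minimum, with 95% confidence intervals by limma and markers at an adjusted p under 0.05 in red (Pdgfra, at 0 throughout, is left out). Hemgn, Krt8 and Tbata pass the threshold, 29 of the 36 points lie above 0, and the B lymphoid genes Cd79a and Cd79b lie below 0.

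In Lck-cre replicates 6 and 8, Sting1 moved with the marker levels, and Cd4 and Rag1 moved against them. Lck-cre replicate 8, the highest in most low-level markers, had the highest Sting1 (232 FPKM) and the lowest Cd4 (422 FPKM) and Rag1 (436 FPKM) of the 8 samples. Lck-cre replicate 6, the lowest of its group in most, had the lowest Sting1 (85.4 FPKM) and the highest Cd4 (689 FPKM) and Rag1 (647 FPKM) of the Lck-cre samples. Cd4 averaged 545 ± 111 FPKM in Lck-cre samples and 747 ± 36.4 FPKM in control samples, with a log2 difference of -0.47 ± 0.14 (SE, adjusted p = 0.0356), and Rag1, a recombinase of TCR genes, had one of -0.59 (adjusted p = 0.0141). Cd8a and Cd8b1 were not called (adjusted p 0.274 and 0.131). Ptcra, the pre-TCR alpha chain of the stage before DP and early DP cells, went the other way, with 49.2, 37.5, 46.5 and 36.6 FPKM in Lck-cre samples, against 33.6, 25.7, 31.7 and 28.7 FPKM in control samples, without overlap (log2 difference 0.49, adjusted p = 0.0107). Within the Lck-cre samples, Ptcra did not follow the order of the markers, since replicates 6 and 8 were close. Of the 12 genes of the DP thymocyte list, 1 was called higher and 5 lower, and 6 were not called, where 15.4% of all genes tested were called higher and 10.4% lower. The part of Sting1 level or of the make-up of the sorted cells in the marker levels was not tested.

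A longer list of 111 further genes of the same lineages was read beside the markers. Of these, 37 reached 0.1 FPKM in at least 4 samples, of which 12 were called higher and 3 lower, against 10.9% and 7.42% of all genes tested, and 16 were listed at 0 in all 8 samples. Every Lck-cre sample lay above every control sample for 17 of the 111, of which 10 were dendritic, and below for 2. Over all genes above 0 anywhere, these shares were 9.04% and 7.24%. The dendritic genes held 8 of the 12 increases, from 12 tested of 19, and 1 decrease. Those that rose were the MHC class II genes H2-Aa, H2-Ab1 and H2-Eb1, the transcription factor genes Spib and Irf8, and Naaa, Cox6a2 and Klk1. Klk1 was at 0.1 FPKM in no control sample and thus passed the minimum through Lck-cre samples alone, and its adjusted p with no minimum was 0.0532. Of the 12 tested, Ccr7, Fscn1 and Ciita were not called, at 1.80, 0.242 and 0.111 FPKM in Lck-cre samples and 2.25, 0.261 and 0.0981 FPKM in control samples on average (adjusted p 0.269, 0.834 and 0.745). Of the dendritic genes not tested with a minimum, Batf3 was listed at 0 in all 8 samples. Xcr1 was at most 0.0549 FPKM in Lck-cre samples and 0.0450 FPKM in control samples, and Zbtb46 at most 0.0266 and 0.0232 FPKM. Flt3 and Clec10a averaged 0.114 and 0.110 FPKM in Lck-cre samples, against 0.0639 and 0.00773 FPKM in control samples, with overlap. Cd209a had 0.0412 to 0.113 FPKM in Lck-cre samples and was listed at 0 in all control samples. With no minimum it was called higher (adjusted p = 0.0399). Sirpa had 0.0372 to 0.147 FPKM in Lck-cre samples and 0.00644 to 0.0174 FPKM in control samples, without overlap (adjusted p with no minimum 0.0588). These genes and the increases other than H2-Aa and Spib were chosen after their values were seen. H2-Aa, an MHC class II chain, had 1.0, 1.07, 1.63 and 2.48 FPKM in Lck-cre samples, against 0.244, 0.395, 0.367 and 0.509 FPKM in control samples, with a log2 difference of 1.72 ± 0.24 (SE, adjusted p = 0.00998). Spib, a transcription factor of plasmacytoid dendritic and B cells, had 1.86, 0.70, 1.03 and 1.64 FPKM in Lck-cre samples, against 0.621, 0.279, 0.419 and 0.306 FPKM in control samples, with a log2 difference of 1.44 ± 0.24 (SE, adjusted p = 0.0112). Both were without overlap, and both missed the threshold without Lck-cre replicate 5 (adjusted p 0.0515 and 0.0542), Spib also without control replicate 1 (adjusted p 0.0520). The gene that fell was Pacsin1, a membrane-shaping protein, with 3.25, 2.32, 2.71 and 1.78 FPKM in Lck-cre samples, against 4.72, 3.86, 3.9 and 2.64 FPKM in control samples, with overlap (adjusted p = 0.0458). Its call held without control replicate 4 alone of the 8 single samples (adjusted p 0.0372, otherwise 0.0556 to 0.127) and ended without the sex term (adjusted p = 0.0797).

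In the other lineages few further genes passed. Of 22 further myeloid genes 5 were tested and 1 rose, Cebpa, a transcription factor of granulocytes and macrophages, which had 0.283, 0.145, 0.265 and 0.246 FPKM in Lck-cre samples, against 0.0485, 0.0498, 0.107 and 0.139 FPKM in control samples (log2 difference 0.86 ± 0.25 SE, adjusted p = 0.0429), with 2 control samples at 0.1 FPKM. The macrophage genes Marco and Vsig4 and the neutrophil gene S100a9 were listed at 0 in all 8 samples. With no minimum, 19 further myeloid genes were tested, and 8 were higher and 0 lower at an unadjusted p under 0.05. Every Lck-cre sample lay above every control sample for 3 of the 22, against 9.04% of all genes above 0 anywhere. Besides Cebpa these were Mrc1 and Slc40a1, at most 0.0572 and 0.0756 FPKM in Lck-cre samples (adjusted p with no minimum 0.0890 and 0.0808). Both were named after their values were seen. Spi1, which encodes PU.1, chosen after its values were seen, had 0.155, 0.0250, 0.123 and 0.183 FPKM in Lck-cre samples and was listed at 0 in control samples but for 0.0261 FPKM in replicate 2. Cebpa kept its call only without Lck-cre replicate 6 or control replicate 4 (adjusted p 0.0214 and 0.0474, otherwise 0.0580 to 0.159), and the adjusted p with TPM was 0.0521.

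Of 16 further B lymphoid genes 6 were tested and 1 rose, Ighm, the immunoglobulin mu chain, with 509, 473, 499 and 539 FPKM in Lck-cre samples, against 433, 388, 397 and 392 FPKM in control samples (log2 difference 0.33 ± 0.07 SE, adjusted p = 0.0199). With quantile normalization its log2 difference was 0.15 and its adjusted p 0.178, and the call also ended without Lck-cre replicate 5 or 7 or control replicate 1, 2 or 4 (adjusted p 0.0536 to 0.0662). Ralgps2, a guanine nucleotide exchange factor, and Pou2af1, a coactivator of octamer factors in B cells, both chosen after their values were seen, went the other way, with every Lck-cre sample below every control sample. Ralgps2 had 25.8 to 27.6 FPKM in Lck-cre samples and 28.1 to 31.0 FPKM in control samples, and was called lower with a minimum of 1 FPKM (log2 difference -0.18, adjusted p = 0.0439) and not with a minimum of 0.1 FPKM (adjusted p = 0.0526). Pou2af1 averaged 0.977 FPKM in Lck-cre samples and 1.17 FPKM in control samples (adjusted p = 0.225). Pax5, a transcription factor that defines B cells, chosen after its values were seen, was at most 0.00323 FPKM in Lck-cre samples and listed at 0 in all control samples. Ighm was thus at 388 FPKM or more in samples in which Pax5 was at or near 0.

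Of 13 further erythroid genes 5 were tested, 0 rose (1 at an unadjusted p under 0.05) and 1 fell. This was Car2, the carbonic anhydrase of red cells and other tissues, with 2.60, 4.26, 3.0 and 1.87 FPKM in Lck-cre samples, against 5.91, 5.58, 4.77 and 4.02 FPKM in control samples, where Lck-cre replicate 6 overlapped (log2 difference -0.81 ± 0.23 SE, adjusted p = 0.0414). It kept its call only without Lck-cre replicate 6 (adjusted p 0.00756, otherwise 0.0526 to 0.148). Hemgn and Car2, both in erythroid lists, thus changed in opposite directions, and the anion exchanger Slc4a1 and Car1 were at 0 in all 8 samples.

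Of 16 further epithelial genes 4 were tested and 1 rose, Cdh1, which encodes E-cadherin, with 0.587, 0.193, 0.273 and 0.576 FPKM in Lck-cre samples, against 0.164, 0.0554, 0.0846 and 0.0773 FPKM in control samples (log2 difference 1.31 ± 0.27 SE, adjusted p = 0.0159). Its call ended without Lck-cre replicate 5 or control replicate 1 or 2 (adjusted p 0.0523 to 0.0653), and only 1 control sample reached 0.1 FPKM. At an unadjusted p under 0.05, 1 of the 4 was higher and 1 lower. The lower one was Cldn4, a claudin, with 11.3 FPKM in Lck-cre samples and 14.3 FPKM in control samples on average (adjusted p = 0.115). Krt18, the keratin that pairs with Krt8, averaged 0.431 FPKM in Lck-cre samples and 0.427 FPKM in control samples (adjusted p = 0.988), and Ctsl, a lysosomal protease of cortical epithelium, 62.06 FPKM in Lck-cre samples and 62.08 FPKM in control samples (adjusted p = 0.982). With no minimum, 15 further epithelial genes were tested, and 3 were higher and 0 lower at an unadjusted p under 0.05. Among them, Pax1 had 0.0838 to 0.193 FPKM in Lck-cre samples and 0 to 0.0199 FPKM in control samples, without overlap. It was called higher with no minimum (adjusted p = 0.0399). Cldn4, Krt18, Ctsl and Pax1 were chosen after their values were seen. Of 12 further endothelial genes 4 were tested. Egfl7, a secreted protein of endothelium, had 1.71, 2.15, 1.98 and 1.84 FPKM in Lck-cre samples, against 0.813, 0.882, 1.07 and 1.28 FPKM in control samples (log2 difference 0.88 ± 0.15 SE, adjusted p = 0.0111). Eng, a co-receptor for TGF-beta ligands, had 2.43, 2.03, 1.67 and 1.72 FPKM in Lck-cre samples, against 4.10, 2.10, 2.87 and 2.26 FPKM in control samples, with overlap (log2 difference -0.48 ± 0.14 SE, adjusted p = 0.0472). Egfl7 lost its call without Lck-cre replicate 5 or control replicate 1 (adjusted p 0.0563 and 0.0536), and Eng kept its only without Lck-cre replicate 6 (adjusted p 0.0310, otherwise 0.0656 to 0.178) and lost it without the sex term (adjusted p = 0.131). The endothelial genes Tie1, Emcn, Cldn5 and Vwf were listed at 0 in all 8 samples.

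Of 13 further mesenchymal genes 1 was tested and 0 were called (1 at an unadjusted p under 0.05). Pdgfrb, a receptor of pericytes and fibroblasts, had 1.55, 0.635, 1.07 and 1.47 FPKM in Lck-cre samples, against 0.709, 0.413, 0.784 and 0.460 FPKM in control samples, with overlap (log2 difference 0.86 ± 0.27 SE, adjusted p = 0.0537). Pdgfrb was called higher where all 8 samples had to reach 0.1 FPKM (adjusted p = 0.0439), with a pseudocount of 0.5 (adjusted p = 0.0496), with quantile normalization (adjusted p = 0.0432), and without Lck-cre replicate 6 (adjusted p = 0.0145) or control replicate 3 (adjusted p = 0.0356). The matrix genes Col1a2, Dcn, Lum, Bgn and Dpt were listed at 0 in all 8 samples.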

How the data were processed

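Total RNA of sorted DP thymocytes was, per the labels' protocols, purified on RNeasy columns and sequenced at BGI Americas. HISAT and Bowtie2 are named, without version or role, in the submitters' processing notes, while neither names nor settings of the quantifier, genome build, annotation and strand protocol were found in the labels or headers. The deposited tables, 1 per sample, hold FPKM, TPM and coverage per Ensembl gene, computed by the authors, per the file headers, and no read counts, so a count test was not possible and the depth in reads is unknown. FPKM is scaled by gene length and library size, TPM sums to the same total in each sample, and the deposited coverage (signal per base) is not scaled by depth. Levels under 0.1 FPKM rest on few reads, and a level of 0 can be a failed estimate.

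There were 55359 gene IDs in 55361 to 55366 entries per table, and entries sharing an ID were summed. Between Lck-cre samples, log2 values correlated at 0.983 to 0.991 (Pearson's r across genes), and between control samples at 0.985 to 0.992. Limma 3.58.1 (R 4.3.3) with a trend was fitted to log2(FPKM + 0.5) for genes at 1 FPKM or more in at least 4 samples, and to log2(FPKM + 0.1) for genes at 0.1 FPKM or more in at least 4 samples, in all 8 samples, with terms for sex and genotype. Tests were two-sided, adjusted by Benjamini-Hochberg over all genes tested, with a threshold of 0.05. Log2 differences of Sting1, the thymocyte genes and the 9 markers in the first fit come from that fit, and all others from the second. On these scales a difference understates the change of a low gene. A fold divides the mean FPKM of Lck-cre samples by that of control samples, ± after a level is an SD (n = 4), and intervals are 95%. Both fits were tested on simulated data. Levels were summarised with pandas 2.3.3 and NumPy 2.4.6 in Python 3.11.15, and plotted with Matplotlib 3.10.9.

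The members and gene lists were chosen with earlier results of these data known. All 37 markers are named, with values per sample for those at 1 FPKM, those called and the highest of each lineage, and other low-level markers were also given per sample. Further genes are those called with the smallest adjusted p (up to 2 in each direction per lineage) or else the most abundant. Promoter sequences are RefSeq's, and a called gene whose window held over 30 bases of an annotated first exon was passed over (Hemgn). Alternatives tried were other pseudocounts, minima, scalings (quantile, TPM, median of ratios), no sex term, males only, a threshold of 0.01 and each sample left out. The count of markers without overlap and the sums over low-level markers alone, with their alternatives, were chosen after the data were seen.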

Additional observations from a re-analysis of the deposited data

Results flagged for a closer look

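Of 66 groups of 4 samples examined, 1 held a sample far from the others. Ccl25 had 3.26 to 4.57 FPKM in the Lck-cre samples, and in the controls it had 4.13 FPKM in replicate 4 and 3.37 to 3.45 FPKM in the others. The gap to the nearest control was 0.894 of the range of the group, above Dixon's 95% critical value for 4 samples, and chance alone picks about 1 in 20 such groups.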

How the results depend on the processing

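No paired analysis was possible because the groups share no replicate numbers (5 to 8 in Lck-cre and 1 to 4 in control samples). No called marker changed direction under the alternatives run. The count of all genes called with a minimum of 1 FPKM, 3180, was 512 at a threshold of 0.01, 615 in males alone and 1056 with no minimum, and that with a minimum of 0.1 FPKM, 3201, was 221, 110 and 1194. The markers called higher, 3 of 9, were 1 at 0.01 and 1 in males alone, and the 11 of 21 were 2 at 0.01, 2 in males alone (Hemgn and Tbata), 5 of 13 where all 8 samples had to reach 0.1 FPKM and 3 with no minimum. A pseudocount of 0.5 ended the call of C1qc (adjusted p 0.0545). Fewer samples or other genes tested are part of these settings, and the cause was not tested further.

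With single samples left out, these counts ran from 636 to 3865 and from 68 to 4006 genes, from 1 to 4 and from 2 to 11 markers higher and 0 to 0 lower, and from 15 to 23 markers without overlap, and the log2 difference of Sting1 from 3.27 to 3.78. Without either female the other female is uninformative. With TPM the split of calls turned to 1337 higher and 2117 lower (against 1901 and 1279), and to 1236 higher and 1884 lower (against 1907 and 1294) with a minimum of 0.1 FPKM, where 11 markers were again called higher and 0 lower. The median over all genes was then -0.06 and -0.07, against 0.01 and 0.00159.

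The log2 ratio of summed myeloid levels, 0.65, was 1.92 over low-level markers alone, and the epithelial ratio, 0.34, was 2.24. As a mean of log2(FPKM + 0.1) values, the dendritic ratio of 3.16 was 1.13, the B lymphoid ratio of -0.12 turned to 0.17, the erythroid ratio of 1.14 was 0.49, the epithelial ratio was 0.59 and the endothelial ratio of 0.14 was 0.33. Each gene then weighs alike, and the added 0.1 FPKM shrinks the differences of low genes. The parts of these 2 steps were not separated. With single samples left out, the ratios ran from 0.48 to 0.76 (myeloid), 2.75 to 3.48 (dendritic), -0.20 to -0.00484 (B lymphoid), 1.05 to 1.23 (erythroid), 0.27 to 0.46 (epithelial), 0.09 to 0.18 (endothelial) and 0.24 to 0.70 (mesenchymal). Over low-level markers alone no ratio could be had for the erythroid and endothelial genes, whose controls were all at 0. Without counts, no limit of detection can be given.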
